A study of Homo sapiens with 9 samples.

Results

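The genes described here are the 5 NF-κB subunits (NFKB1, NFKB2, RELA, RELB and REL) and 5 of its regulators (the inhibitors NFKBIA, NFKBIE and TNFAIP3, the atypical IκB NFKBIZ, and BIRC3), followed in human fibroblasts driven into senescence by oncogenic RAS. The members were listed by name, with earlier results of these data known, so their counts beside the shares of all genes are descriptions. A member was taken as measured where a probe set carried its symbol and no other, which held for 9 of the 10, each with 1 probe set, out of 18417 genes measured in all. BIRC3, which encodes a ubiquitin ligase of the TNF receptor complex, was not analysed here.

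The cells were IMR90, a line of human lung fibroblasts that the labels spell IRM90, carrying ER:RAS, in which an active mutant RAS is joined to a hormone-responsive piece of the oestrogen receptor. ER:RAS was present in all 3 groups, and 4-hydroxytamoxifen (4OHT) switches it on. Vector-4OHT cells carried the empty vector and received no 4OHT, and vector+4OHT cells carried the empty vector and received 100 nM 4OHT. The shARID1B+4OHT cells carried short hairpin RNA (shRNA) against ARID1B and received the same 4OHT. Each group held 3 arrays, with 6 days after 4OHT and 7 days of growth given in the labels. Not among the groups were cells without ER:RAS given 4OHT, cells with a control hairpin, and cells with the ARID1B hairpin but no 4OHT. An effect of 4OHT itself cannot be told apart from that of RAS, nor an effect of carrying any hairpin from that of ARID1B loss. Effects of RAS signalling and of senescence cannot be told apart either. Below, the words in senescence stand for the comparison of vector+4OHT with vector-4OHT cells. The labels do not say how many hairpins were used or whether replicates were separate cultures. The study describes the arrays as biological replicates. For this experiment it names an shRNA against ARID1B in its text but ARID1B shRNAs, in the plural, in its figure caption. The p-values cover the scatter among these arrays.

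NF-κB is a family of dimeric transcription factors. In resting cells most dimers are held in the cytoplasm by IκB proteins, and signals from cytokine receptors or damaged DNA activate the IκB kinase, which marks IκB for destruction and frees the dimer to enter the nucleus. Among the genes it then switches on are those of its own inhibitors, a negative feedback loop. In senescent fibroblasts NF-κB is known as a main driver of the senescence-associated secretory phenotype (SASP), the release of cytokines, chemokines and proteases.

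Because many genes of this loop are themselves known NF-κB targets, the promoters of the members were read for the κB motif, the letters that NF-κB dimers bind. Sequences came from RefSeq (GRCh38.p14), as windows of 250 bases before and 50 bases after each annotated start. The motif was searched by its usual 10-letter consensus on both strands. RefSeq windows were at hand for 7 of the 9 measured members, 12 windows in all, and none for RELB or NFKBIE. A match stood in 8 of the 12 windows and in at least 1 window of 6 of the 7 genes, RELA being the exception. Over all 35116 promoter windows, 11.3% held a match and 2.04% held matches at 2 or more start positions. In the members with several windows the matches differed between starts, and the arrays give 1 value per gene, which cannot be assigned to a start. A match describes the letters in the window and not a site shown to be bound. Whether matches go with the changes in level was not tested.

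The 250 bases before the start are shown for the members with the largest changes in senescence (NFKBIZ, TNFAIP3, NFKBIA and NFKB2), for REL, which was higher with the ARID1B hairpin, and for RELA, which has no match and was called in no comparison. Each is written 5′ to 3′ on the strand of its gene, with capitals marking letters that lie in a κB match on either strand.
NFKBIZ second start, chr3:101849264-101849513, plus strand: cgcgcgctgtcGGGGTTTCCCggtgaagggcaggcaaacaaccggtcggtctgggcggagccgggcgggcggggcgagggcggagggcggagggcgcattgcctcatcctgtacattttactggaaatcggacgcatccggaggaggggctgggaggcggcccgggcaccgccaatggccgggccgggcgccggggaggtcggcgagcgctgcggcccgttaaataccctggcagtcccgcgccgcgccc
TNFAIP3, chr6:137867009-137867258, plus strand: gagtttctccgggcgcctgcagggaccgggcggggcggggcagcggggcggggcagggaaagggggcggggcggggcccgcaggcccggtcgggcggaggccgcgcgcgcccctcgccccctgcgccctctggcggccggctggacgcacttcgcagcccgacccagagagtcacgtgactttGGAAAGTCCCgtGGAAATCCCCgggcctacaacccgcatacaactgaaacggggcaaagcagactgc
NFKBIA, chr14:35404750-35404999, minus strand: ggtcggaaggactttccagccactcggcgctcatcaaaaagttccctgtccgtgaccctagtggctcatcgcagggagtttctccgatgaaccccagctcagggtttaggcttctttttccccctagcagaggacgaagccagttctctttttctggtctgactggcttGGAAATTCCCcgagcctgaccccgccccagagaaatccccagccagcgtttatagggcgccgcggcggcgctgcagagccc
NFKB2 second start, chr10:102394328-102394577, plus strand: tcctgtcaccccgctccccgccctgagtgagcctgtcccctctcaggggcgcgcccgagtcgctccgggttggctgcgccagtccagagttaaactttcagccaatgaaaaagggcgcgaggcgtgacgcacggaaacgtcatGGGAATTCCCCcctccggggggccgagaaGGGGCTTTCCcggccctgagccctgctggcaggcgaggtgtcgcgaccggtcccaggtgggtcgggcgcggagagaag
REL, chr2:60881324-60881573, plus strand: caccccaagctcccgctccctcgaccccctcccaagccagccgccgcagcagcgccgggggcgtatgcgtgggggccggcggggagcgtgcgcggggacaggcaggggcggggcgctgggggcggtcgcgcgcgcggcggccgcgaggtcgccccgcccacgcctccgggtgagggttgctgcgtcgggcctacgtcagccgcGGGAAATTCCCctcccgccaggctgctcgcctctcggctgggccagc
RELA second start, chr11:65662917-65663166, minus strand: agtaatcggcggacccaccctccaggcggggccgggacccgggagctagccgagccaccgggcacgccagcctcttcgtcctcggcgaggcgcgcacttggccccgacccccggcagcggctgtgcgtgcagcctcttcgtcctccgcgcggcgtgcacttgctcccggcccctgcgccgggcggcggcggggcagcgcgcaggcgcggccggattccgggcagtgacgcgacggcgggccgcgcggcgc
In NFKBIZ the match lay 239 to 230 bases upstream of the second start and reads as a match on both strands, and the first start had a match 223 to 214 bases upstream. TNFAIP3 carried neighbouring matches 67 to 58 and 55 to 46 bases upstream, both on the opposite strand. NFKBIA had 1 match, 81 to 72 bases upstream on the opposite strand. For NFKB2, matches at the second start began 107, 106 and 78 bases upstream, those beginning at 107 and 106 overlapping, and its first start had none. Its last start had matches 176 to 167 and 21 to 12 bases upstream. The REL matches began 47 and 46 bases upstream, overlapping on opposite strands. NFKB1, not printed, had a match 49 to 40 bases upstream of its first start and none at its second.

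**Figure D1:**
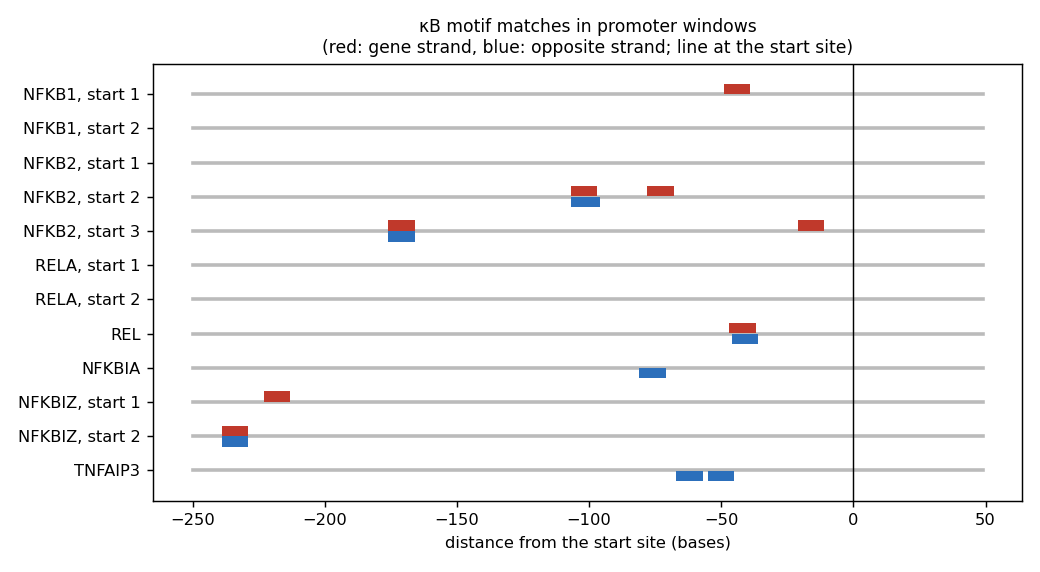
Positions of κB motif matches in the 12 promoter windows of the 7 members with a RefSeq window. The x axis is the distance from the start in bases, red boxes above the line are matches on the strand of the gene and blue boxes below it are matches on the opposite strand. Both RELA windows, the second NFKB1 window and the first NFKB2 window are empty, and every match drawn lies upstream of the start.

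All levels below are log2 expression values after RMA, on which 1 unit is a doubling. The median of all values, 6.75, was taken over all 33297 probe sets, of which 12083 carried no gene symbol. Every group mean of every measured member was above that median. The fit ran over all 9 arrays and all genes with limma, and a gene was called at a Benjamini-Hochberg adjusted p under 0.05. Pairs of arrays of 1 group correlated at 0.997 to 0.999 across genes and pairs from different groups at 0.98 to 0.996. ARID1B, the target of the hairpin, read 8.63, 8.96 and 8.77 in vector+4OHT cells and 8.07, 7.96 and 8.13 in shARID1B+4OHT cells, so that it was 39.9% lower (adjusted p = 0.000179). All 10 fibroblast markers had means above the median of all values in each group, while 8 of the 10 were called lower in vector+4OHT than in vector-4OHT cells and 6 of the 10 lower in shARID1B+4OHT than in vector-4OHT cells. Their summed linear level ran from 35722 to 39250 in vector-4OHT cells, from 29328 to 30633 in vector+4OHT cells and from 29855 to 30764 in shARID1B+4OHT cells. The part of these markers in the members' changes was not tested. In bulk RNA, fewer cells of a type and less RNA per cell cannot be told apart.

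In senescence 7 of the 9 measured members were higher and none lower. The comparison asks what differed with 4OHT in cells with empty vector (vector+4OHT against vector-4OHT). NFKBIZ rose about 5-fold, TNFAIP3 nearly 3-fold and NFKBIA close to 2-fold, while NFKB1, NFKB2, RELB and NFKBIE rose by smaller amounts and RELA and REL were not called. Of all genes, 14.9% were called higher and 17.6% lower in this comparison, or 2747 and 3249 genes, and with array medians subtracted 3026 and 2658 genes. The median change of the 9 members was 0.58 on the log2 scale against -0.01 over all genes. No member was lower at an unadjusted p under 0.05 or by the methods' t-test either. Arrays of the groups did not overlap for 7 of 9 members, against 40.1% of all genes.

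The comparison of shARID1B+4OHT with vector+4OHT cells asks what differed, under 4OHT, in cells carrying the ARID1B hairpin. REL, TNFAIP3 and NFKBIA were higher, NFKBIE was lower, and the other 5 measured members were not called. Over all genes 9.63% were called higher and 6.09% lower, or 1773 and 1122 genes (1799 and 760 with array medians subtracted), and the median change was 0.10 for the members and -0.02 for all genes. Groups did not overlap for 6 of 9 members, against 32.5% of all genes. Without shARID1B+4OHT array 2, TNFAIP3 was the 1 member still called higher, and 1801 genes were called. This comparison and the previous one share the vector+4OHT arrays, so a high or low reading on those arrays enters both with opposite sign.

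Cells with the hairpin and 4OHT were finally set against non-senescent cells (shARID1B+4OHT against vector-4OHT), which asks what remained of the change. Again 7 of 9 members were higher and none lower, by the unadjusted p and by the methods' t-test as well, but the 7 now held REL in place of NFKBIE. Their background was 15.6% of genes higher and 15.9% lower, or 2867 and 2933 genes, and with array medians subtracted the split became 3452 and 2087 genes. The median change was 0.76 for the members and -0.03 for all genes, and groups did not overlap for 7 of 9 members against 45.9% of all genes.

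**Figure D2:**
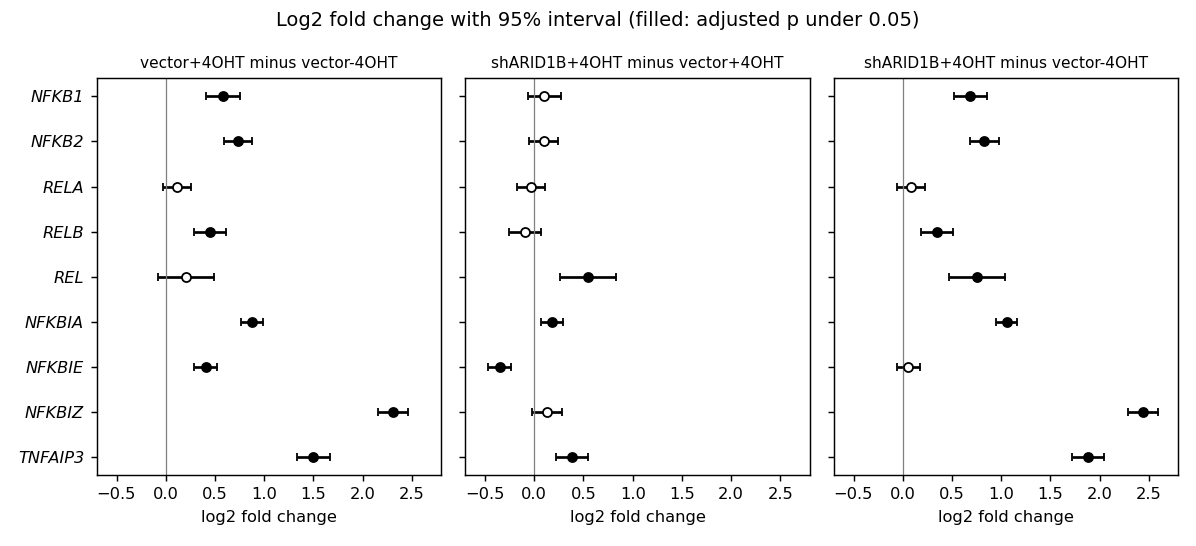
Log2 fold change (x axis) of the 9 measured members in the 3 comparisons, 1 panel each, with 95% intervals from limma. Filled points have an adjusted p under 0.05, which holds for 7 members in the left panel, 4 in the middle and 7 in the right, and NFKBIZ and TNFAIP3 lie farthest to the right in both outer panels.

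NFKB1 encodes the precursor of the short subunit that pairs with RELA in the classical dimer, and its uncleaved form also acts as an IκB. It read 9.18, 8.96 and 9.15 in vector-4OHT cells, 9.54, 9.72 and 9.79 in vector+4OHT cells and 9.74, 9.81 and 9.80 in shARID1B+4OHT cells. All vector+4OHT arrays were above all non-senescent ones, while arrays with and without the hairpin overlapped. NFKB1 was higher in senescence by 0.58 on the log2 scale (95% interval 0.41 to 0.76, 1.50-fold, adjusted p = 0.000146). With the hairpin it differed by a further 0.10 (-0.07 to 0.27, adjusted p = 0.421).

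NFKB2 encodes the corresponding precursor of the alternative pathway, which pairs with RELB. The non-senescent arrays read 8.79, 8.84 and 9.03, the vector+4OHT arrays 9.59, 9.68 and 9.59, and the shARID1B+4OHT arrays 9.72, 9.71 and 9.72. The 3 groups did not overlap. Its rise in senescence was 0.73 (0.59 to 0.88, 1.66-fold, adjusted p = 7.5e-06), larger in size than the change of 94.4% of genes. The difference with the hairpin, 0.09 (-0.05 to 0.24), was not called (adjusted p = 0.382). Arrays 1 and 3 of the vector+4OHT group held the same value, as happened in some group for 27.4% of all genes, which lowers the measured spread.

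RELB, whose dimers act mainly with the NFKB2 product, gave 7.97, 8.01 and 8.21 in vector-4OHT cells, 8.62, 8.49 and 8.43 in vector+4OHT cells and 8.37, 8.42 and 8.45 in shARID1B+4OHT cells. Both 4OHT groups lay above the non-senescent arrays and overlapped each other. The rise in senescence was 0.45 (0.29 to 0.61, 1.36-fold, adjusted p = 0.000688), and with the hairpin the level differed from vector+4OHT by -0.10 (-0.26 to 0.07, adjusted p = 0.436).

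RELA encodes the main transactivating subunit of the classical dimer, which is known to be controlled largely by its release from IκB rather than by its mRNA. Its levels were 10.15, 10.28 and 10.19 without 4OHT, 10.31, 10.42 and 10.24 with 4OHT and 10.38, 10.25 and 10.25 with 4OHT and the hairpin. All 3 groups overlapped. The senescence difference was 0.12 (-0.03 to 0.26, adjusted p = 0.214), the knockdown difference -0.03 (-0.17 to 0.11, adjusted p = 0.798) and the difference of shARID1B+4OHT from vector-4OHT 0.09 (-0.06 to 0.23, adjusted p = 0.355). The intervals leave room for a rise of up to 0.26 on the log2 scale in senescence.

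REL, the subunit best known from lymphocytes, was the subunit that differed with the hairpin. It read 7.48, 7.39 and 7.21 in vector-4OHT cells, 7.27, 7.70 and 7.73 in vector+4OHT cells and 7.95, 8.31 and 8.09 in shARID1B+4OHT cells. Arrays of the first groups overlapped because vector+4OHT array 1 was low, and every hairpin array was above every other array. In senescence the difference was 0.21 (-0.08 to 0.49, adjusted p = 0.277). With the hairpin REL rose by 0.55 (0.27 to 0.83, 1.46-fold, adjusted p = 0.0149), and against non-senescent cells by 0.76 (1.69-fold, adjusted p = 0.00093). Without vector+4OHT array 1 the senescence difference became 0.35 and was called (adjusted p = 0.0302), and without shARID1B+4OHT array 2 the knockdown difference became 0.46 and was not (adjusted p = 0.0695). The knockdown call was also lost by the methods' t-test (adjusted p = 0.177).

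Since REL is strongly expressed in blood cells, leukocyte markers were read beside it. Of 9 measured, 3 (CD68, TYROBP and SPI1) had group means above the median of all values, and PTPRC, CD3E and MS4A1, which define leukocytes, T cells and B cells, were below it in all groups. The summed linear level of the markers was 2374 to 2614 in vector-4OHT cells, 2732 to 2905 in vector+4OHT cells and 3298 to 3681 in shARID1B+4OHT cells. This sum mostly follows CD68, whose group means were 10.9, 11.1 and 11.5. Those of TYROBP, the next brightest marker, were 7.78, 7.62 and 7.61. CD68, a protein of lysosomes that is not limited to leukocytes, was the single marker called. It was higher by 0.29 in senescence (adjusted p = 0.00558) and by 0.34 with the hairpin (adjusted p = 0.00511).

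**Figure D3:**
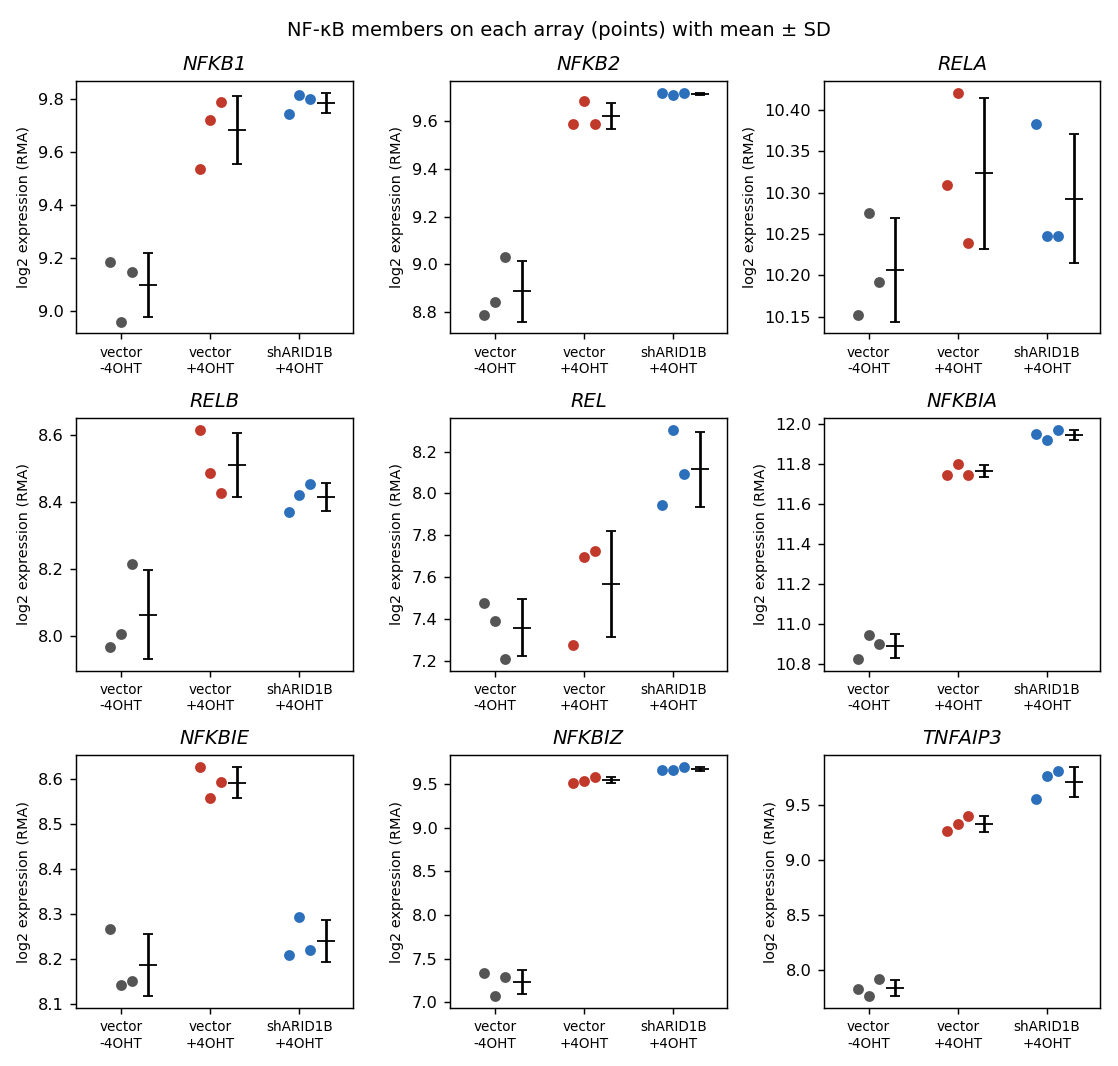
Log2 expression (y axis, a separate scale for each gene that does not start at 0) of the 9 measured members on each array. Points are arrays, grey for vector-4OHT, red for vector+4OHT and blue for shARID1B+4OHT, and bars give the mean ± SD of 3 arrays. NFKBIE is high in vector+4OHT cells alone, REL is highest in shARID1B+4OHT cells, and the RELA groups overlap.

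NFKBIA encodes IκBα, the inhibitor that NF-κB rebuilds fastest and that closes the classical loop. Readings were 10.83, 10.94 and 10.90 in vector-4OHT cells, 11.75, 11.80 and 11.75 in vector+4OHT cells and 11.95, 11.92 and 11.97 in shARID1B+4OHT cells. The groups stood in 3 separate steps. NFKBIA was higher in senescence by 0.87 (0.77 to 0.98, 1.83-fold, adjusted p = 2.49e-07). With the hairpin it was higher by a further 0.18 (0.07 to 0.29, 1.13-fold, adjusted p = 0.0301). Against non-senescent cells the rise was 1.06 (2.08-fold, adjusted p = 5e-08). The knockdown call was narrow, since it was lost with the replicate number as a block (adjusted p = 0.0603) and without any 1 of vector+4OHT array 1 or 3 or shARID1B+4OHT array 1, 2 or 3 (adjusted p = 0.0645, 0.0698, 0.0829, 0.0707 and 0.109), and arrays 1 and 3 of vector+4OHT held the same value.

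NFKBIE encodes IκBε, a slower inhibitor of RELA and REL dimers, and it was the 1 measured member called lower with the hairpin. It measured 8.27, 8.14 and 8.15 in vector-4OHT cells, 8.63, 8.56 and 8.59 in vector+4OHT cells and 8.21, 8.29 and 8.22 in shARID1B+4OHT cells. The senescent vector arrays were above all others, and the arrays with the hairpin overlapped the non-senescent ones. It rose by 0.40 in senescence (0.29 to 0.52, 1.32-fold, adjusted p = 0.000133) and was 21.6% lower with the hairpin (log2 difference -0.35, -0.47 to -0.23, adjusted p = 0.0013). Between shARID1B+4OHT and vector-4OHT the difference was 0.05 (-0.06 to 0.17, adjusted p = 0.488). The rise and the fall both rest on the same vector+4OHT arrays, and both calls held without any 1 of the 9 arrays.

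NFKBIZ encodes IκBζ, an atypical nuclear IκB that helps NF-κB switch on a second set of genes, IL6 among them, instead of holding dimers in the cytoplasm. Its readings were 7.33, 7.07 and 7.30 in vector-4OHT cells, 9.51, 9.53 and 9.59 in vector+4OHT cells and 9.66, 9.65 and 9.70 in shARID1B+4OHT cells. Each group stood above the one before with no overlap, the first step being by far the larger. The rise in senescence was 2.31 (2.16 to 2.46, 4.96-fold, adjusted p = 1.67e-09), larger in size than the change of 99.7% of genes. The hairpin step was 0.13 (-0.02 to 0.28) and was not called (adjusted p = 0.25). Against non-senescent cells NFKBIZ was higher by 2.44 (5.42-fold, adjusted p = 1.02e-09).

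TNFAIP3 encodes a ubiquitin-editing enzyme that shuts off signalling from TNF and Toll-like receptors upstream of the IκB kinase. It read 7.82, 7.76 and 7.91 in vector-4OHT cells, 9.26, 9.33 and 9.41 in vector+4OHT cells and 9.56, 9.77 and 9.82 in shARID1B+4OHT cells. The 3 groups did not overlap. TNFAIP3 was higher in senescence by 1.50 (1.33 to 1.66, 2.83-fold, adjusted p = 9.68e-08), larger in size than the change of 98.9% of genes. With the hairpin it rose by a further 0.38 (0.22 to 0.55, 1.31-fold, adjusted p = 0.00566), and against non-senescent cells it was 3.69-fold higher (adjusted p = 1.45e-08). The methods' t-test did not call the knockdown difference (adjusted p = 0.0942).

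The remaining genes of the pathway were read from lists ordered by role, chosen like the members with earlier results of these data known. Their counts are descriptions and stand beside the shares of all genes called. These shares were 14.9% higher and 17.6% lower in senescence and 9.63% and 6.09% with the hairpin. For shARID1B+4OHT against non-senescent cells they were 15.6% and 15.9%. Of 18 other IκB proteins and feedback inhibitors, 9 were higher and 1 lower in senescence, with a median change of 0.23 on the log2 scale. ZC3H12A, an RNase that destroys inflammatory mRNAs, rose by 1.88 (adjusted p = 8.37e-09), and TNIP1, a partner of the TNFAIP3 protein, by 1.04 (adjusted p = 1.34e-07). NFKBIB, the gene of IκBβ, rose by 0.41 (adjusted p = 0.00026). With the hairpin 1 of 18 was higher and 2 lower, counts near those the shares of all genes would give, with a median of -0.04. TNIP1 fell by 0.33 (adjusted p = 0.00203) and TOLLIP, an adaptor that dampens Toll-like and IL1 receptor signals, by 0.27 (adjusted p = 0.00602). IRAK3, a kinase-like brake on the same receptors, rose by 1.15 in senescence (adjusted p = 1.24e-05) and by a further 0.45 with the hairpin (adjusted p = 0.0167), from a non-senescent mean below the median of all values. Against non-senescent cells 9 of the 18 were higher and 2 lower, or 7 called in all without shARID1B+4OHT array 2.

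Of 26 listed kinases and adaptors 22 were measured, and in senescence 10 were higher and 4 lower, with a median change of 0.12. BIRC2, a ubiquitin ligase closely related to BIRC3, rose by 0.71, and TRAF3, which keeps the alternative pathway off, rose by 0.58. MAP3K14, the kinase that turns the alternative pathway on and that TRAF3 and BIRC2 help degrade, fell by 0.71 and ended below the median of all values. MYD88, the adaptor of IL1 and Toll-like receptors, fell by 0.38. With the hairpin 2 of 22, close to the shares of all genes, were higher (TBK1 by 0.36 and MYD88 by 0.21) and 2 lower (IRAK1 by -0.28 and IKBKE by -0.23), and the number called, 4, ran from 1 to 7 over the alternatives. It was 1 without each shARID1B+4OHT array in turn and 2 without vector+4OHT array 1 or 2. Against non-senescent cells 9 were higher and 3 lower, the lower count being near the 15.9% share of all genes.

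The 13 receptors held 6 that were higher in senescence and 1 that was lower, TLR3, a sensor of double-stranded RNA, which fell by 2.44 to a mean below the median of all values. IL18R1, a subunit of the IL18 receptor, rose by 0.98 (adjusted p = 0.000175), with both vector means below that median. TNFRSF12A, the receptor of the TWEAK cytokine, rose by 0.40, and LTBR, a receptor that feeds the alternative pathway, by 0.22. With the hairpin 4 receptors were higher and none lower by limma's adjusted p or by the methods' t-test, with 1 lower at an unadjusted p under 0.05. IL1R1, the signalling receptor of IL1A and IL1B, had group means of 9.78, 10.0 and 11.2 and was 2.32-fold higher with the hairpin than in vector+4OHT cells (adjusted p = 7.83e-06). TLR3 rose by 1.09 and IL18R1 by a further 1.23, both from vector+4OHT means below the median of all values. Against non-senescent cells 6 receptors were higher and 2 lower, the lower count being near the 15.9% share of all genes.

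Ligands start the pathway by binding these receptors. Of 11 measured of 13 listed, 3 were higher in senescence and none lower, with none lower at an unadjusted p under 0.05 and 1 lower by the methods' t-test. Counting both directions together, the number called is no larger a share than over all genes. The higher calls alone are a larger share than the 14.9% of all genes. The 3 were IL1B (113-fold), IL1A (86.3-fold) and TNFSF15 (49.2-fold), all from means below the median of all values without 4OHT. TNF itself stayed below that median in every group, with means of 5.98, 5.91 and 5.98. With the hairpin TNFSF15 fell by 0.57 and IL1A by 0.41, while TNFSF13B, a B-cell survival factor whose group means were all below the median, rose by 0.24. Against non-senescent cells 3 ligands were higher and none lower, with 1 lower at an unadjusted p under 0.05 and none by the methods' t-test.

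Among the target genes, 35 of 36 listed were measured, and 20 were higher and 2 lower in senescence, with a median change of 0.39. PTGS2, which makes prostaglandin precursors, rose 44.8-fold, and the secreted factors CXCL1, CXCL10 and IL6 rose 22.2-fold, 17.3-fold and 9.62-fold. PTGS2 and CXCL10 started from means below the median of all values (6.02 and 6.61), so their folds are against dim readings. With the hairpin 9 targets were higher and 4 lower, and the median change was 0.04. CXCL10 rose by a further 1.36 on the log2 scale (adjusted p = 2e-06), IL6 by 0.71 (adjusted p = 1.01e-05) and VCAM1, an adhesion molecule, by 1.28 (adjusted p = 0.000144), while CXCL5, a neutrophil attractant, fell by 0.56 (adjusted p = 0.00011). Against non-senescent cells 22 were higher and 2 lower, with a median of 0.55. Targets were thus called both ways with the hairpin, against 9.63% of all genes higher and 6.09% lower. Of the 9 measured members 3 were called higher and 1, NFKBIE, lower.

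**Figure D4:**
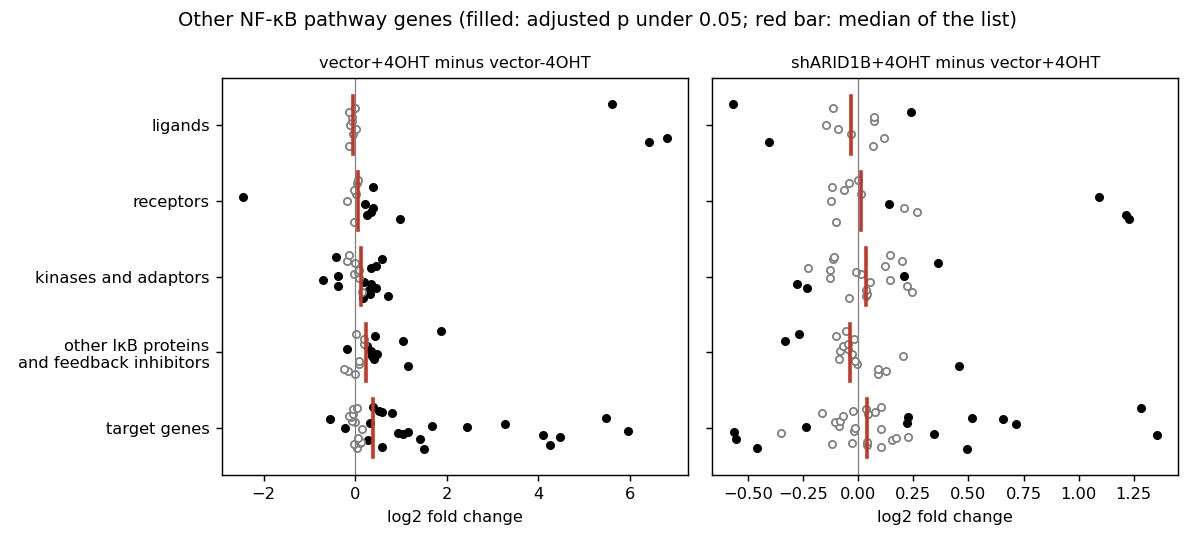
Log2 fold change (x axis) of each other pathway gene, by list, in senescence on the left and with the ARID1B hairpin on the right, where the axis is narrower. Each point is a gene, filled where the adjusted p is under 0.05, and red bars are list medians. The senescence medians run from -0.04 for ligands to 0.39 for target genes, and the knockdown medians from -0.04 to 0.04.

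For each member, the genes with the most similar course over the 9 arrays were found by the root mean square difference of their centred log2 values. NFKBIZ was nearest to CDKN2B (0.106) and CHST11 (0.130), and TNFAIP3 to VEGFA (0.0923) and SPRY2 (0.0995). NFKBIE lay nearest to IGFBP7 (0.0382) and GFUS (0.0432), which share its high reading in vector+4OHT cells. NFKBIA was nearest to FAM20C (0.0507) and TMX4 (0.0535), and REL to GPCPD1 (0.0914) and ZNF749 (0.102). Of the other subunits, NFKB1 was nearest to DGKE (0.0437) and ERO1B (0.0485), NFKB2 to KREMEN1 (0.0568) and GALNT18 (0.0573), RELB to ERN1 (0.0479) and TOR4A (0.0501), and RELA to CDK20 (0.034) and NABP2 (0.0345). These distances come from a search over all genes and describe the same 9 arrays.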

How the data were processed

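Total RNA was hybridised to Affymetrix Human Gene ST arrays, going by the labelling protocol and the probe sets, while the extraction text of the labels names an Illumina library kit. The deposited values are log2 expression per probe set. RMA, which corrects background, quantile-normalises the arrays and summarises probes, is named in the submitters' notes together with oligo and limma, with versions and genome build not given in the sources used here. Of 33297 probe sets, the 19460 with exactly 1 gene symbol were kept, and the 769 genes with several such probe sets were represented by the one with the highest mean, which left 18417 genes.

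All 9 arrays were fitted with limma 3.58.1 (lmFit and eBayes, group as the only term) in R 4.3.3, with 6 residual degrees of freedom (10.45 with the prior). All tests were 2-sided, and p-values were adjusted by Benjamini-Hochberg across genes, separately for each comparison. With 3 arrays a group, exact permutation of the labels reaches no p under 0.1. The number of arrays limits the precision, and the median residual SD was 0.0843. The fit was tested on simulated data. Quantile normalisation sets all arrays to 1 distribution, so changes are relative to the other genes.

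The members and gene lists were chosen with earlier results of these data known. Named were every measured member, ARID1B, up to 4 called genes of smallest p per list and comparison, and the 2 genes most like each member. TNF, the marker genes and BIRC3 were named outside this rule. Promoter windows came from RefSeq (GRCh38.p14). The alternatives were a fit of the 6 arrays compared, averaging the probe sets of each gene, an intensity trend with a robust prior, array-median centring, a filter on dim genes, every probe set tested by itself, the methods' t-test, the replicate number as a block, and leaving out each array.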

Additional observations from a re-analysis of the deposited data

How the results depend on the processing

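Each of the 27 member changes was recomputed under 17 alternatives, 459 values in all, of which 448 kept their direction and side of the threshold, 9 lost a call, 1 gained one and 1 reversed. The reversed value was the knockdown difference of RELA, which ran from -0.075 (without shARID1B+4OHT replicate 1) to 0.019 (without vector+4OHT replicate 2). All member calls in senescence and in what remained held throughout, as did NFKBIE in the knockdown. By the methods' t-test with Benjamini-Hochberg adjustment 3738 genes were called in senescence and 1446 in the knockdown, and 1 member stayed higher in the knockdown, with REL (adjusted p = 0.177) and TNFAIP3 (adjusted p = 0.0942) lost. In senescence it called 7 kinases and adaptors (14 by limma) and 4 receptors (7 by limma). At its unadjusted p under 0.05 it called 7, 6 and 7 of the 9 members in the 3 comparisons. The same cutoff called 5998, 4342 and 6691 of the 18417 genes. Leaving out each array in turn, genes called in the knockdown ran from 1801 (without shARID1B+4OHT replicate 2) to 2817, and members called higher from 1 (also without that replicate) to 3. Causes were not tested. Over all pairs of groups, deviations correlated from -0.26 to 0.32 for same-numbered arrays and from -0.33 to 0.34 for others. Between vector+4OHT and shARID1B+4OHT the same-numbered arrays gave 0.32, 0.08 and 0.07, against -0.32 to 0.27 for others. Same-numbered arrays of vector-4OHT and either other group gave -0.26 to -0.01. These few values cannot show whether replicates were paired, and the main fit did not take the numbers as pairs. With the replicate block 5658, 2498 and 5437 genes were called, 2 members were higher in the knockdown (NFKBIA lost, adjusted p = 0.0603), and no other member call changed. A filter on dim genes left 11945 genes and all 9 members.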
